A study of Mus musculus with 24 samples.

Results

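The cytosolic ribosomal protein genes, which encode the proteins of the 80S ribosome, were followed across 4 natural killer (NK) cell populations from mouse tumours. Members were the protein-coding rows whose symbol is Rpl or Rps followed by a number, with Rpsa, Rplp0, Rplp1 and Rplp2, and without the Rps6k kinases. The rule gave 83 of 53465 gene identifiers, 51 of the large and 32 of the small subunit, and used no measured value. Of these, 79 passed the filter on low counts and were tested. The 4 that did not pass were Rpl10l, with 0 counts in all 24 libraries, Rpl3l with 12, Rpl39l with 30 and Rpl24 with 91.

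NK cells are innate lymphocytes that kill infected and malignant cells, and were sorted here at day 14 from B16F10 melanomas growing under the skin of the flank. The hosts were female wild-type B6 mice, with no treatment or age named in the labels. The populations were CD27+CD69+, CD27+CD69-, CD11b+CD69+ and CD11b+CD69-, with 6 libraries of 100 cells each. CD27 marks less mature and CD11b more mature mouse NK cells, and CD69 is a surface lectin that appears early after activation. The cell type field of the labels says melanoma, but the titles and design name sorted NK populations.

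Total counts ran from 1213914 to 2671533 per library (median 2213433). The 12 NK markers summed to 17810 ± 1636 CPM (counts scaled to library size) in CD27+CD69+ libraries, 16300 ± 2843 in CD27+CD69-, 35510 ± 2976 in CD11b+CD69+ and 43470 ± 2597 in CD11b+CD69- (mean and SD of 6). The 10 T cell markers summed to 762 to 1953 CPM in CD27+CD69+, 357 to 1394 in CD27+CD69-, 86.0 to 324 in CD11b+CD69+ and 63.0 to 133 in CD11b+CD69- libraries. Among them Cd3e, a chain of the T cell receptor complex, had medians of 151, 82.0, 0 and 0 CPM in the same order. The 8 fibroblast markers summed to 0 to 304 CPM in CD27+CD69+, 552 to 11890 in CD27+CD69-, 0 in each CD11b+CD69+ library and 0 to 8.02 in CD11b+CD69-. Libraries that stood apart were CD27+CD69- replicates 1 and 6 and CD27+CD69+ replicate 3. CD27+CD69- replicate 6 had 5957 CPM of the 8 melanoma markers and the lowest total count, and replicate 1 had the lowest summed ribosomal protein level of the 24 libraries, at 15750 CPM. CD27+CD69+ replicate 3 had the lowest sum of its population, at 25590 CPM. Macrophage markers (10 genes) stayed at or below 56.9 CPM outside CD27+CD69- libraries and reached 302 there, and the 5 B cell markers reached at most 18.3 CPM. In such bulk samples, fewer cells of a type and less RNA per cell cannot be told apart.

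A ribosome takes 1 copy of most of its proteins, so cells make these proteins in fixed proportion and in great number. The mRNAs of vertebrate ribosomal proteins begin with a C followed by a run of pyrimidines, the 5′ terminal oligopyrimidine (TOP) motif, through which mTOR signalling and the binding protein LARP1 set their translation together. Growth and activation of lymphocytes are known to raise ribosome production, and Myc is a known inducer of ribosomal protein and ribosome assembly genes.

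The letters around the annotated starts are shown for members that rose in at least 1 comparison, with and without a pyrimidine run near the start. The paralogs Rpl22l1 and Rps27l, which departed from the common order, are shown too. Each window holds the 20 bases before and the first 20 bases of the RefSeq start in GRCm38.p6, on the gene's strand. Capitals mark each C followed by at least 4 C or T, with that C within 10 bases of the start, and the whole run after it. Rps18, Rps6, Rpl12, Rpl15 and Rpl38 held such a run.
Rps18 (chr17:33955646-33955685, minus strand): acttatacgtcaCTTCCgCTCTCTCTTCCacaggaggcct
Rps6 (chr4:86857348-86857387, minus strand): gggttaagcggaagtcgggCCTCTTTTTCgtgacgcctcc
Rpl12 (chr2:32961692-32961731, plus strand): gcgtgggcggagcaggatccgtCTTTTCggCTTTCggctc
Rpl15 (chr14:18270967-18271006, minus strand): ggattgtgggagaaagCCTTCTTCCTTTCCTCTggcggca
Rpl38 (chr11:114668560-114668599, plus strand): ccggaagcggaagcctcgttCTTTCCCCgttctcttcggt
Rpl13 and Rplp0 held runs only with the C more than 10 bases from the start, so none is marked. Both rose in at least 3 comparisons.
Rpl13 (chr8:123102330-123102369, plus strand): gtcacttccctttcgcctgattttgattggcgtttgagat
Rplp0 (chr5:115559447-115559486, plus strand): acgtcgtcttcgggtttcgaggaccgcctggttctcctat
The paralogs Rpl22l1 and Rps27l also held a run.
Rpl22l1 (chr3:28805488-28805527, plus strand): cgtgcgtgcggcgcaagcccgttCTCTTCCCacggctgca
Rps27l (chr9:66946066-66946105, plus strand): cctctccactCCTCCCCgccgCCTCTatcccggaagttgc

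An entry in the RefSeq start table existed for 63 of the 83 members. A run lay within 10 bases of a start in 39 of these 63 (61.9%), against 37.4% of the tested genes with an entry and 34.4% of all 27025 genes with one. On the other strand of the same windows the shares were 23.8% of members, 41.5% of tested genes and 38.5% of all genes. A run that began exactly at the annotated base was found in 13 members (20.6%), against 3.11% of tested genes and 3.01% of all genes. Genes with several annotated starts counted once if any start matched. The match describes the letters only, and no match was read as the lack of a TOP start.

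The summed level of the members followed the order of the populations. It averaged 31370 ± 3049 CPM in CD27+CD69+, 24750 ± 4726 in CD27+CD69-, 24190 ± 1931 in CD11b+CD69+ and 19090 ± 909 in CD11b+CD69- libraries (SD, n = 6 each). In CD27+CD69+ the libraries ran from 25590 to 33900 CPM with a median of 32080, and CD27+CD69- libraries from 15750 to 29770 with a median of 25680. CD11b+CD69+ libraries ran from 22100 to 26970 CPM with a median of 23680, and CD11b+CD69- libraries from 18410 to 20560 with a median of 18630. Thus each CD11b+CD69+ library lay above each CD11b+CD69- library and the CD27+CD69+ and CD27+CD69- ranges overlapped. CD27+CD69- and CD11b+CD69+, neighbours in this order, overlapped and did not differ beyond their spread. The members took 1.58% to 3.38% of the counts of a library. Mitochondrial transcripts made up 0.975% to 1.25% of counts in CD27+CD69+, 0.657% to 1.57% in CD27+CD69-, 0.706% to 1.31% in CD11b+CD69+ and 0.668% to 0.871% in CD11b+CD69- libraries. Genes with a count numbered 12370 to 13140, 13290 to 14540, 11910 to 12130 and 11610 to 12050 in the same order, and the part of both measures in the results was not tested.

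**Figure D1:**
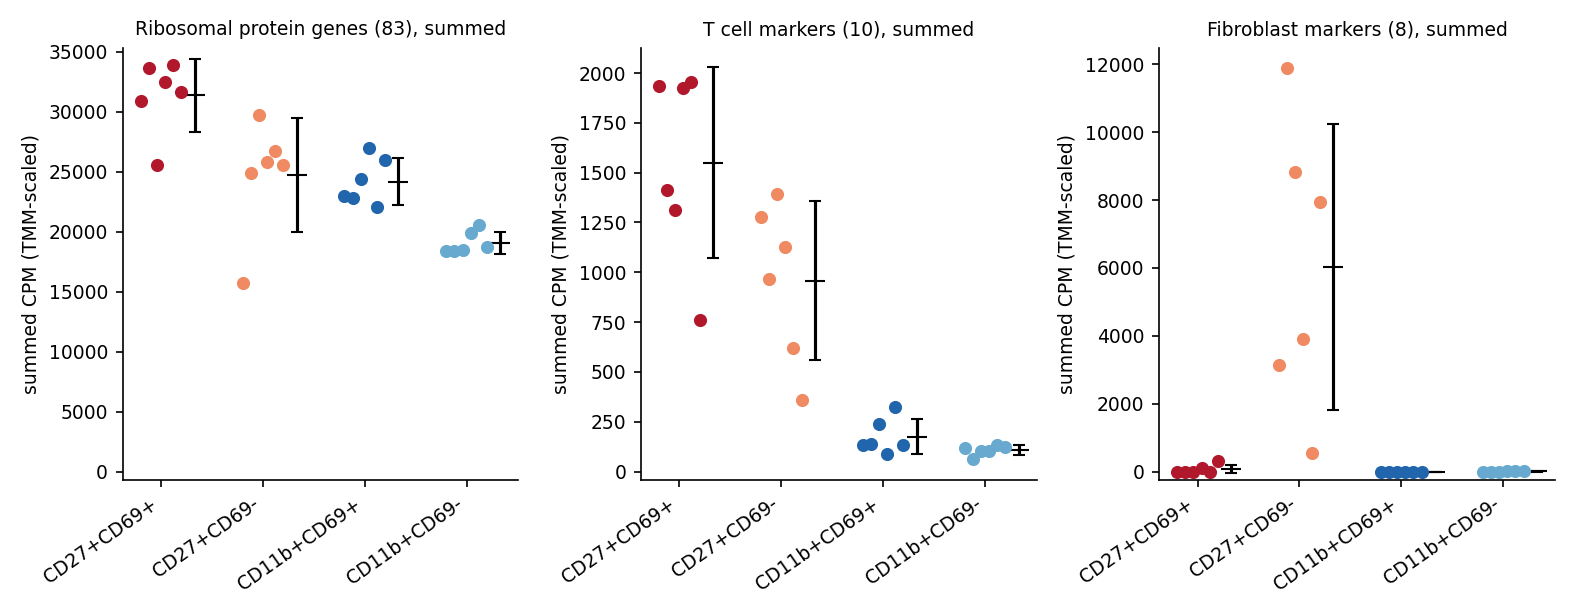
Summed level in CPM (TMM-scaled, linear axes) of the 83 ribosomal protein genes, the 10 T cell markers and the 8 fibroblast markers in each of the 24 libraries, with mean and SD beside the 6 points of a population. The ribosomal protein sum was highest in CD27+CD69+ (31370 on average) and lowest in CD11b+CD69- (19090), T cell markers were higher in both CD27+ populations, and fibroblast markers stood out in CD27+CD69-.

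The proportion between the subunits hardly moved. Large subunit members made up 55.3 ± 0.268% of the summed level in CD27+CD69+, 56.1 ± 0.794% in CD27+CD69-, 55.8 ± 0.407% in CD11b+CD69+ and 56.3 ± 0.542% in CD11b+CD69- libraries (SD, n = 6 each). Per kilobase of annotated exon, the highest mean levels over the populations were those of Rpl4 (693 CPM per kb), Rpl36 (660), Rplp1 (650) and Rplp0 (625). The lowest among tested members were Rpl13a, at 3.74 CPM per kb, Rpl23a at 14.2 and Rpl22l1 at 19.9. The untested members had 0 (Rpl10l), 0.127 (Rpl3l), 0.871 (Rpl39l) and 1.69 CPM per kb (Rpl24). Exons of Rpl13a and Rpl24 overlap those of Gm45713 and Gm28037 on the same strand. Both of those genes had 0 counts, and the treatment of reads shared between genes or with retropseudogene copies is unknown from the sources used here. Rpl23a has 14 named retropseudogenes, and its exons overlap Snord42b on the same strand and Tlcd1 on the other. Exons of Rpl13a also overlap Snord33 and Mir5121 on the same strand. The low values of Rpl13a, Rpl23a and Rpl24 are therefore uncertain as levels of these genes. Rpl13a averaged 8.71 ± 1.37 CPM in CD27+CD69+, 10.8 ± 4.43 in CD27+CD69-, 6.84 ± 1.85 in CD11b+CD69+ and 5.27 ± 1.60 in CD11b+CD69- libraries. Rpl24 averaged 1.85 ± 0.964, 0.609 ± 0.618, 1.61 ± 2.18 and 2.88 ± 2.54 CPM in the same order, and reached at most 7.06 CPM in a library. Rpl23a averaged 16.1 ± 3.24, 10.9 ± 2.86, 12.4 ± 2.34 and 8.82 ± 0.778 CPM.

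Across populations the members moved alike. The mean level was lowest in CD11b+CD69- and highest in CD27+CD69+ for 76 of the 79 tested members (96.2%), against 13.1% of the 10536 genes tested. In 67 members (84.8%) the lowest CD27+CD69+ library lay above the highest CD11b+CD69- library, against 4.27% of genes tested. These 2 populations differ in both markers, and no test was attached to that pair. The 3 departures from the common order were Rpl22l1, Rps27l and Rpl13a.

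**Figure D2:**
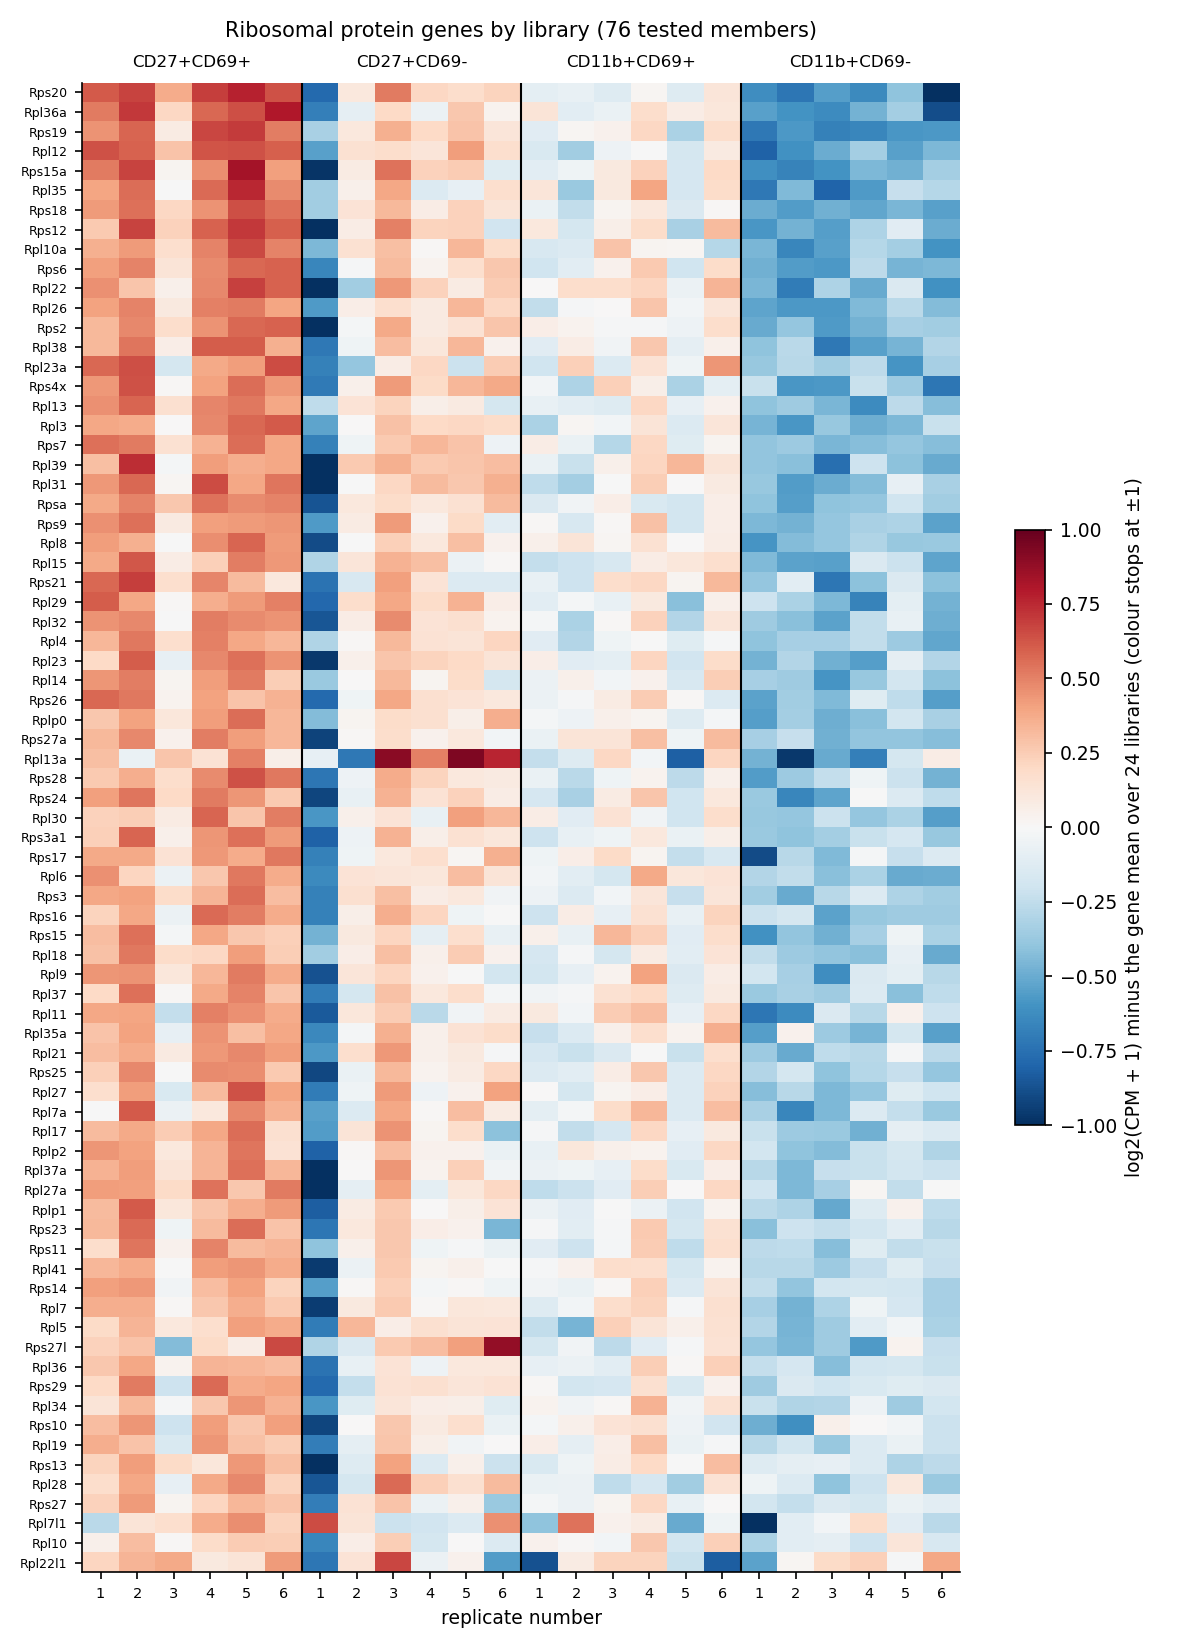
Each row is 1 of 76 of the 79 tested members and each column 1 of the 24 libraries, with colour for log2(CPM + 1) minus the gene's mean over the 24 libraries (colour stops at 1 either way), and rows ordered by the ratio of the CD27+CD69+ to the CD11b+CD69- mean. Of the CD27+CD69+ columns 5 lie above the gene mean in 74 to 76 rows and replicate 3 in 53, CD11b+CD69- columns do so in 0 to 5 rows and CD27+CD69- replicate 1 in 1, and Rpl22l1 at the bottom shows no such order.

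CD69+ against CD69- cells were first compared among CD11b+ NK cells, the more mature ones. Ribosomal protein genes were higher in CD69+ cells: 13 of 79 rose and none fell, by edgeR's quasi-likelihood test with Benjamini-Hochberg adjustment over all 10536 genes, of which 1.64% rose and 1.1% fell. The median log2 difference of the members was 0.35, against 0 over all genes, and 78 of 79 members had a positive value. Each CD69+ library lay above each CD69- library in 31 members (39.2%), against 1.6% of all genes. Of those that rose, 7 were of the small and 6 of the large subunit, among them Rps19, Rps18, Rpl13, Rps20, Rpl26, Rpl36a, Rps27a, Rps15, Rpl8, Rplp0, Rps6 and Rps9.

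Rps19, a small subunit protein needed to mature 18S rRNA and mutated in human Diamond-Blackfan anaemia, had the smallest p. It ran from 408 to 586 CPM in CD11b+CD69+ libraries (median 521) and from 309 to 342 in CD11b+CD69- libraries (median 331). The ranges did not overlap, and the log2 difference was 0.64 ± 0.11 (SE; adjusted p = 0.000897, edgeR). Rps18, which sits in the head of the small subunit, ran from 383 to 489 CPM in CD11b+CD69+ (median 446) and from 309 to 330 in CD11b+CD69- libraries (median 320). Its ranges were also apart, with a difference of 0.46 ± 0.10 (adjusted p = 0.00598). Rps20, another head protein, ran from 215 to 257 CPM in CD11b+CD69+ (median 222) and from 117 to 179 in CD11b+CD69- libraries (median 153). It differed by 0.60 ± 0.14 with no overlap (adjusted p = 0.0163). Of the 56 member calls over the 4 comparisons, these 3 were the only ones that stayed past the threshold in all 23 alternative settings tried for them.

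Among large subunit members, Rpl13 ran from 570 to 720 CPM in CD11b+CD69+ libraries (median 592) and from 404 to 520 in CD11b+CD69- (median 468), a difference of 0.40 ± 0.09 (adjusted p = 0.0152). Rpl36a, which lies near the tRNA exit site, ran from 73.1 to 89.3 CPM in CD11b+CD69+ (median 84.1) and from 42.2 to 62.0 in CD11b+CD69- (median 52.8), a difference of 0.63 ± 0.16 (adjusted p = 0.0246). The ranges of both were apart. Rpl26, near the mouth of the peptide exit tunnel, averaged 236 ± 28.6 and 168 ± 14.0 CPM in CD69+ and CD69- libraries (difference 0.50, adjusted p = 0.0246). Rps27a, made as a fusion with ubiquitin, averaged 285 ± 32.1 and 200 ± 12.4 CPM (0.51, adjusted p = 0.0344). Rps6, the classic substrate of S6 kinase downstream of mTOR, averaged 254 ± 35.3 and 183 ± 14.8 CPM in CD69+ and CD69- libraries (0.47, adjusted p = 0.0476). Rps15 (0.46), Rpl8 (0.48) and Rps9 (0.43) also rose, with adjusted p between 0.0363 and 0.0477.
Rplp0, the base of the acidic stalk that recruits elongation factors, ran from 929 to 1049 CPM in CD11b+CD69+ (mean 999) and from 691 to 891 in CD11b+CD69- (mean 779). Its difference was 0.36 ± 0.10 (adjusted p = 0.0476), while its stalk partners Rplp1 and Rplp2 had 0.16 and 0.32 and did not pass (adjusted p = 0.661 and 0.229). T cell markers in this comparison averaged a sum of 175 ± 88.0 CPM with CD69 and 108 ± 24.7 without, 1 of the 8 tested T cell markers rose, and fibroblast markers were at or near 0 in both. Leaving out 1 library at a time gave 3 to 10 members that rose. Leaving out any of the 6 CD11b+CD69- libraries (4 to 8 members), or CD11b+CD69+ replicate 1 (8), 3 (6), 4 (3) or 6 (4), lowered the count by more than 1.5 times, and the 12 medians stayed between 0.31 and 0.37.

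Among CD27+ NK cells fewer members passed the threshold than among CD11b+ cells. The SD of the summed level was 3049 CPM with CD69 and 4726 without it among CD27+ cells, against 1931 and 909 CPM among CD11b+ cells. Both comparisons came from the same fit to all 24 libraries, and the part of this spread in the number of calls was not tested. CD69+ CD27+ cells had a median log2 difference of 0.35 for the members, against -0.01 for all genes, and 77 of 79 were positive. Only Rpl13, Rpl36a and Rps18 rose (3 of 79), and none fell, where 0.55% of all genes rose and 1.3% fell. In no member did each CD69+ library lie above each CD69- library, against 0.731% of all genes. At an unadjusted p under 0.05 there were 62 members, where CD11b+ cells had 55. The same cut took 1154 of all 10536 genes tested in CD27+ cells and 1460 in CD11b+ cells. The 2 CD69 comparisons share no library.

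Rpl13 ran from 698 to 935 CPM in CD27+CD69+ libraries (median 866) and from 525 to 728 in CD27+CD69- (median 658). The log2 difference was 0.41 ± 0.09 (SE; adjusted p = 0.0154, edgeR). Rpl36a ran from 90.9 to 138 CPM in CD27+CD69+ (median 121) and from 48.8 to 95.5 in CD27+CD69- (median 78.3), a difference of 0.61 ± 0.16 (adjusted p = 0.0376). Rps18 ran from 526 to 711 CPM in CD27+CD69+ (median 640) and from 356 to 570 in CD27+CD69- (median 498), a difference of 0.37 ± 0.10 (adjusted p = 0.0454). In these 3 genes the ranges overlapped, and all 6 CD69+ libraries lay above the CD69- median.
The fibroblast marker sum of CD27+CD69- libraries, at 6041 ± 4215 CPM, was far above that of CD27+CD69+ (67.9 ± 123 CPM, n = 6 each), and 3 of its 4 tested genes fell in CD69+ cells. The lowest fibroblast sum of a CD27+CD69- library, 552 CPM, lay above the highest of a CD27+CD69+ library, 304 CPM. Fibroblast marker level and population therefore cannot be told apart here. With the log2 fibroblast sum as a covariate 0 members were called higher and their median was 0.43. Over all genes 0 were called higher, against 58 without it. With the T cell sum 0 members and 17 of all genes were called higher, and the members' median was 0.39. Without CD27+CD69- replicates 1 and 6 the member count was 0, against 32 of all genes, and the members' median was 0.21. Leaving out single libraries gave 1 member without CD27+CD69- replicate 1, 2, 4 or 6 or CD27+CD69+ replicate 2, 5 or 6, 8 without CD27+CD69- replicate 3 and 10 without CD27+CD69+ replicate 3.

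The difference between the CD69 differences, CD27+ minus CD11b+, was tested for each member. No member was called higher or lower (0 of 79) by edgeR, DESeq2 or limma-voom. By edgeR 0.237% of all genes were called higher and 0.342% lower. An unadjusted p under 0.05 was found for 0 members, against 997 of all 10536 genes. The median was -0.01, against -0.03 for all genes, and single members ran from -0.68 (Rpl13a) to 0.53 (Rpl22l1). For Rps18 the estimates within CD27+ and CD11b+ cells were 0.37 and 0.46, and for Rpl36a 0.61 and 0.63. A p that misses the threshold does not show that the differences were equal.

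CD27+ against CD11b+ cells, the comparison of less with more mature NK cells, were compared separately without and with CD69. Among CD69- cells 29 of 79 members rose in CD27+ cells and none fell, where 7.46% of all genes rose and 4.92% fell. The members' median was 0.39, against 0.05 over all genes, and 78 were positive. Each CD27+ library lay above each CD11b+ library in 4 members (5.06%), close to the 3.86% of all genes. The summed level of CD27+CD69- replicate 1, 15750 CPM, lay below the lowest CD11b+CD69- library, 18410 CPM. Without replicate 1, 59 members rose, and the count over all genes in that fit is not given here. Without CD27+CD69- replicates 1 and 6, 62 members rose, against 745 of all genes. Plain library totals gave 46, and over all genes they gave 987 higher and 398 lower, against 786 and 518.

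**Figure D3:**
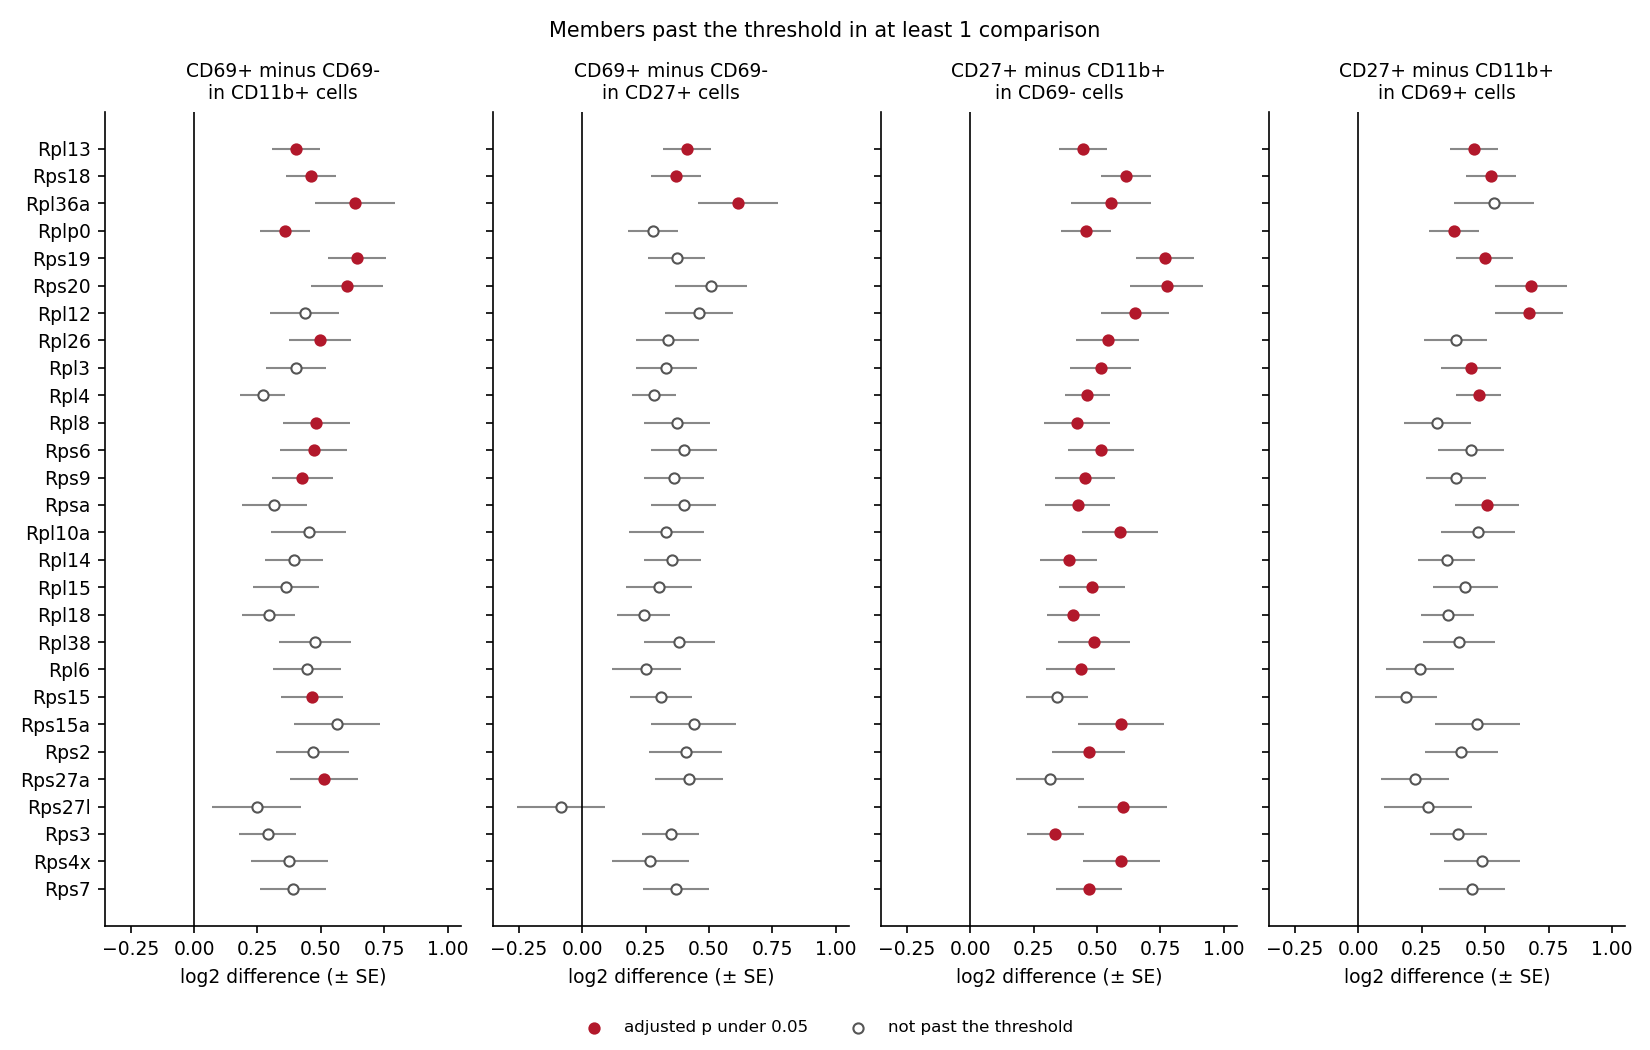
Log2 differences (points) with standard errors (lines) of 28 of the 31 members past the threshold in at least 1 comparison, in 4 panels, 1 per comparison, with filled points for an adjusted p under 0.05. Nearly all points lie between 0.2 and 0.8, and only Rps27l in the second panel lies below 0.

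Rps19 had the smallest p here too. It ran from 406 to 651 CPM in CD27+CD69- libraries (median 568) and from 309 to 342 in CD11b+CD69- (median 331). All 6 CD27+ libraries lay above every CD11b+ library, and the log2 difference was 0.77 ± 0.11 (SE; adjusted p = 2.44e-05, edgeR). Rps18 followed with 0.62 ± 0.10 (adjusted p = 7.39e-05) and ranges that were also apart. Rps20 ran from 138 to 338 CPM in CD27+CD69- (median 270) and from 117 to 179 in CD11b+CD69- (median 153), overlapped, and differed by 0.77 ± 0.14 (adjusted p = 0.000424). Rpl12, at the base of the stalk, ran from 89.7 to 176 CPM in CD27+CD69- (median 147) and from 74.5 to 104 in CD11b+CD69- (median 91.0). It differed by 0.65 ± 0.14 (adjusted p = 0.00148). Rpl4, which lines the peptide exit tunnel, ran from 1102 to 1702 CPM in CD27+CD69- (median 1496) and from 949 to 1146 in CD11b+CD69- (median 1071), a difference of 0.46 ± 0.09 (adjusted p = 0.000633).
Rpl13, Rplp0, Rpl26 and Rpl3 were also among the 10 of smallest p, with log2 differences of 0.44, 0.46, 0.54 and 0.51. Rpl3, which reaches towards the peptidyl transferase centre, ran from 468 to 829 CPM in CD27+CD69- (median 772) and from 451 to 578 in CD11b+CD69- (median 491). Others that rose were Rpl10a, Rps6, Rps4x, Rpl18, Rps9, Rpl15, Rps7, Rps15a, Rpl36a, Rpl38, Rpl14, Rps27l, Rpsa, Rps2, Rpl6, Rpl8 and Rps3. Their differences ran from 0.34 (Rps3) to 0.60 (Rps27l). Rps4x, the X-linked member that has a Y-linked copy in humans, ran from 198 to 436 CPM in CD27+CD69- (median 389.7) and from 196 to 278 in CD11b+CD69- libraries (median 234) and differed by 0.60 (adjusted p = 0.00834).

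Among CD69+ cells 11 of 79 members rose in CD27+ cells and none fell, where 0.987% of all genes rose and 0.911% fell. The median was 0.37, against 0.02 over all genes, and 79 of 79 were positive. Each CD27+ library lay above each CD11b+ library in 13 members (16.5%), against 1.26% of all genes. Rps18 ran from 526 to 711 CPM in CD27+CD69+ (median 640) and from 383 to 489 in CD11b+CD69+ (median 446). These ranges were apart, with a log2 difference of 0.52 ± 0.10 (SE; adjusted p = 0.00212, edgeR). Rpl4 ran from 1527 to 1967 CPM in CD27+CD69+ (median 1751) and from 1113 to 1359 in CD11b+CD69+ (median 1290.0), was apart too, and differed by 0.48 ± 0.09 (adjusted p = 0.00212).
Rpl12 ran from 160.0 to 205 CPM in CD27+CD69+ (median 201) and from 103 to 139 in CD11b+CD69+ (median 122), a difference of 0.67 ± 0.13 (adjusted p = 0.00408). Rps20 ran from 306 to 403 CPM in CD27+CD69+ (median 373) and from 215 to 257 in CD11b+CD69+ (median 222), a difference of 0.68 ± 0.14 (adjusted p = 0.00592). In both genes the ranges were apart. Rpl13 (0.46), Rps19 (0.50), Rpsa (0.51), Rplp0 (0.38) and Rpl3 (0.45) also rose, with adjusted p between 0.00536 (Rpl13) and 0.0471 (Rpl3). Rpsa, known also as the laminin receptor precursor, averaged 577 ± 39.8 CPM in CD27+CD69+ and 406 ± 31.7 in CD11b+CD69+ libraries (SD, n = 6 each).

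In both CD69 comparisons 1 of 12 NK markers fell, where 1.1% (CD11b+) and 1.3% (CD27+) of all genes fell. Among CD11b+ cells 9 of the 12 were negative. In 6 of them each CD69+ library lay below each CD69- library, against 167 of all 10536 genes. Among CD27+ cells 10 of the 12 were positive and 0 had ranges apart. T cell markers moved with both comparisons of CD27+ with CD11b+ cells: 7 of 8 tested ones rose in CD27+ cells each time, and NK markers were lower, with 11 of 12 falling among CD69- and 6 of 12 among CD69+ cells. The lowest T cell sum of a CD27+ library, 357 CPM, lay above the highest of a CD11b+ library, 324 CPM, so T cell marker level and population cannot be told apart. With that sum as a covariate, 3 members were called higher among CD69- and 0 among CD69+ cells, while the members' medians were 0.52 and 0.51. Over all genes it left 337 called higher, against 786, and 26, against 104. With the fibroblast sum, 0 and 7 members were called, 29 and 87 of all genes were called higher, and the members' medians were 0.24 and 0.36. Among CD69- cells the lowest fibroblast sum of a CD27+ library, 552 CPM, lay above the highest of a CD11b+ library, 8.02 CPM. There, fibroblast marker level and population cannot be told apart either. All 4 tested fibroblast markers rose in CD27+CD69- against CD11b+CD69- cells, and none of the 4 passed among CD69+ cells. Of 3 tested macrophage markers 1, Apoe, rose among CD69- cells and none passed elsewhere. Leaving out 1 library gave 20 to 59 members among CD69- and 7 to 15 among CD69+ cells. Among CD69+ cells the count was 7, against 11, without CD11b+CD69+ replicate 1, 2 or 5 or CD27+CD69+ replicate 1, 2, 4, 5 or 6.

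**Figure D4:**
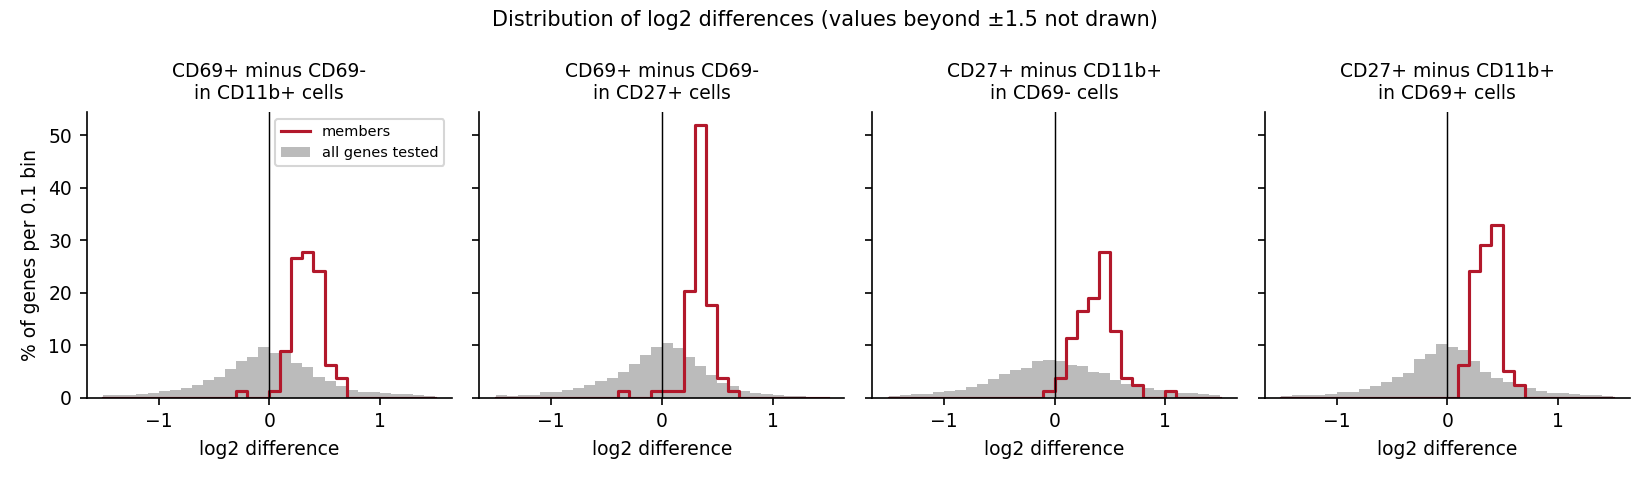
Percent of genes in bins of 0.1 in log2 difference, for the 79 tested members (red line) and all 10536 genes tested (grey bars), in 4 panels, 1 per comparison; values beyond 1.5 either way are not drawn. The members form a narrow peak between about 0.2 and 0.5 in each panel, with medians of 0.35, 0.35, 0.39 and 0.37, while all genes centre near 0.

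The CD11b+ comparison of CD69 and the CD69- comparison of CD27+ with CD11b+ share the CD11b+CD69- libraries, and each of the other pairs that meet in a population shares its libraries likewise, so calls in several comparisons are not independent. Rpl13 and Rps18 rose in all 4 comparisons, 5 members in 3 (among them Rpl36a, Rplp0, Rps19 and Rps20), 9 in 2 (among them Rpl12, Rpl26, Rpl3, Rpl4, Rpl8, Rps6, Rps9 and Rpsa), 15 in 1 and 48 of the 79 in none. The 48 were mostly positive too, since no comparison had more than 2 negative members. The 4 negative values had unadjusted p of 0.349 and 0.747 (Rpl22l1), 0.644 (Rps27l) and 0.544 (Rpl13a).

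Of the 3 departures, Rpl22l1 and Rps27l are paralogs of other members. Rpl22 binds RNA in the large subunit, and Rpl22l1 is its paralog. Rpl22 ran from 106 to 165 CPM in CD27+CD69+ (median 142), 40.4 to 139 in CD27+CD69- (median 114.0), 98.2 to 129 in CD11b+CD69+ (median 115.5) and 62.6 to 92.5 in CD11b+CD69- libraries (median 72.9). Rpl22l1 averaged 46.1 ± 4.46, 37.8 ± 13.7, 34.0 ± 11.2 and 40.2 ± 8.25 CPM in the same order (SD, n = 6 each). The log2 difference of CD69+ minus CD69- in CD11b+ cells was 0.59 ± 0.20 for Rpl22 (unadjusted p = 0.00583, adjusted p = 0.116, edgeR) and -0.25 ± 0.26 for Rpl22l1 (adjusted p = 0.770). Neither passed the threshold in any comparison, and the difference between the paralogs was not tested.

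Rps27l, the paralog of Rps27 and a known p53 target, had its highest mean in CD27+CD69- cells. It averaged 165 ± 39.1 CPM in CD27+CD69+, 175 ± 52.4 in CD27+CD69-, 136 ± 13.8 in CD11b+CD69+ and 115 ± 17.6 in CD11b+CD69- libraries. Its highest value, 264 CPM, was in CD27+CD69- replicate 6, the library with 5957 CPM of melanoma markers. Rps27l rose in CD27+ against CD11b+ among CD69- cells (0.60 ± 0.17, adjusted p = 0.0210, edgeR). Without that library the difference was 0.45 and did not pass (adjusted p = 0.0880), and without CD27+CD69- replicates 1 and 6 it was 0.57 (adjusted p = 0.0264). It was 0.17 with the fibroblast sum as a covariate (adjusted p = 0.995) and 1.203 with the T cell sum (adjusted p = 0.0368). In the same comparison Rps27 had 0.08 ± 0.12 (adjusted p = 0.753). Rps27 itself averaged 531 ± 47.5, 423 ± 98.2, 450 ± 32.9 and 400 ± 16.9 CPM in the same order of populations.
Rpl7 averaged 749 ± 67.2, 614 ± 149, 650 ± 63.0 and 513 ± 54.1 CPM in CD27+CD69+, CD27+CD69-, CD11b+CD69+ and CD11b+CD69- libraries. Its paralog Rpl7l1 averaged 129 ± 21.4, 125 ± 33.6, 112 ± 30.2 and 98.0 ± 26.1 CPM, and neither passed in any comparison. Rpl39 averaged 127 ± 21.4, 106 ± 34.4, 104 ± 14.2 and 71.8 ± 8.79 CPM in that order and passed in no comparison either. Rpl39l, the testis-type paralog of Rpl39, had 0 counts in the 12 CD11b+ libraries, where 3 counts correspond to 1.15 to 1.66 CPM. It reached 5.51 CPM in CD27+CD69+ and 4.74 CPM in CD27+CD69- libraries. Rpl3l, the muscle paralog of Rpl3, had its 12 counts in 1 CD11b+CD69+ library, at 4.995 CPM. Rpl10l, a testis-type copy of Rpl10, had none.

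**Figure D5:**
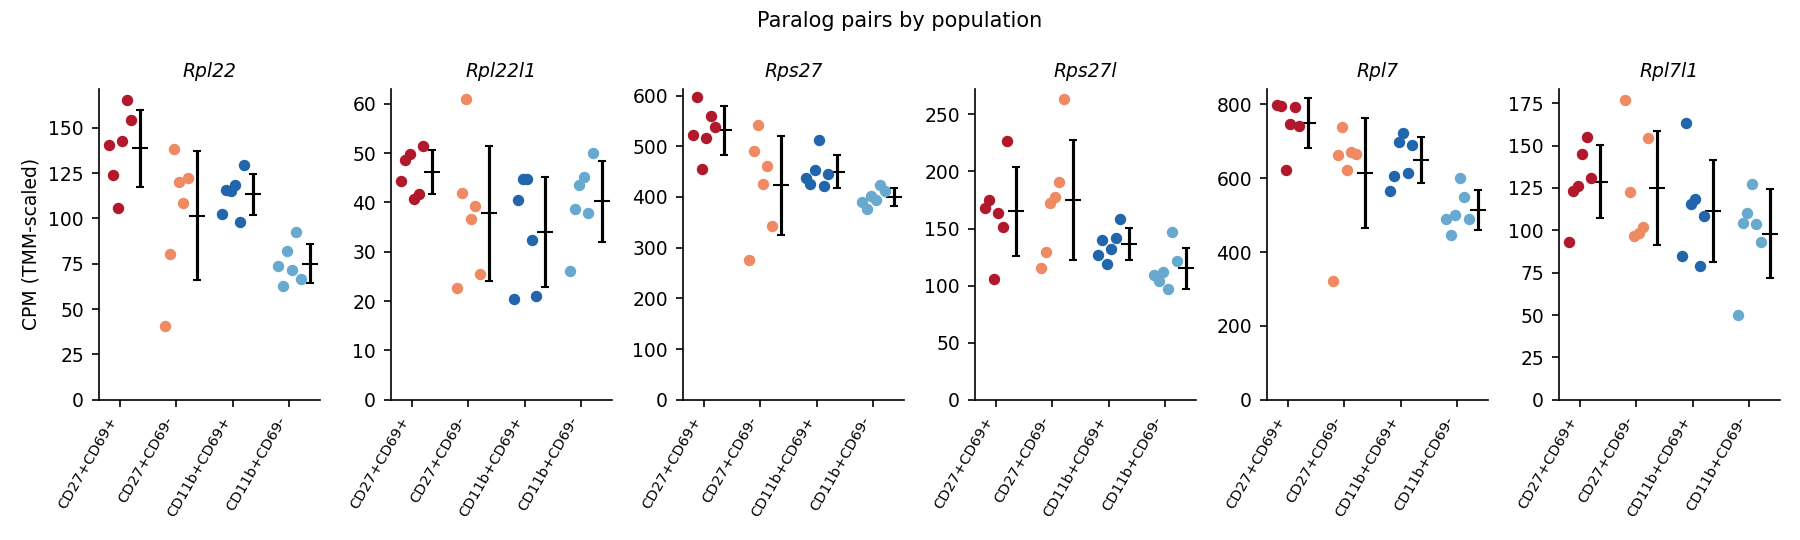
CPM (TMM-scaled, linear axes from 0, own scale per panel) of Rpl22 and Rpl22l1, Rps27 and Rps27l, and Rpl7 and Rpl7l1 in each library, with mean and SD beside the 6 points of a population. Rpl22 is lowest in CD11b+CD69- (median 72.9) while Rpl22l1 (40.2 on average there) shows no order of the populations, and Rps27l reaches 264 in CD27+CD69- replicate 6.

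Some members changed their share of the summed ribosomal protein level. Rps20 made up 1.17 ± 0.0255% of it in CD27+CD69+, 1.03 ± 0.0898% in CD27+CD69-, 0.946 ± 0.0481% in CD11b+CD69+ and 0.789 ± 0.0935% in CD11b+CD69- libraries (SD over 6). Ranges in CD27+CD69+ and CD11b+CD69-, 1.12 to 1.197% and 0.621 to 0.869%, were apart. Rps19 made up 2.30 ± 0.136%, 2.29 ± 0.155%, 2.12 ± 0.153% and 1.73 ± 0.0925% in the same order. Rpl10, which joins the large subunit last, had the opposite order with 1.95 ± 0.114%, 2.06 ± 0.161%, 2.33 ± 0.136% and 2.59 ± 0.209%. Rps27 likewise had 1.70 ± 0.0724%, 1.71 ± 0.210%, 1.86 ± 0.0732% and 2.10 ± 0.0825%. These shares carry no test. Rpl10 itself did not pass in any comparison and its log2 differences lay between 0.04 and 0.26.

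Of the proteins that join 5S rRNA and can bind Mdm2, Rpl5 averaged 180 ± 15.7, 155 ± 32.9, 149 ± 26.5 and 125 ± 14.5 CPM in CD27+CD69+, CD27+CD69-, CD11b+CD69+ and CD11b+CD69- libraries. Rpl11 averaged 166 ± 27.4, 125 ± 30.0, 144 ± 15.7 and 107 ± 21.2 CPM in the same order. Neither passed in any comparison. The stalk proteins Rplp1 (408 ± 47.3, 315 ± 70.1, 303 ± 16.8 and 271 ± 34.8 CPM) and Rplp2 (263 ± 30.5, 203 ± 46.0, 215 ± 17.5 and 171 ± 13.0 CPM) did not pass either, and their difference from Rplp0 was not tested.

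Fau, Rack1 and Rpl36al encode subunits or fusion precursors too and fall outside the naming rule. Rack1, a scaffold on the small subunit, averaged 727 ± 86.8, 625 ± 76.7, 593 ± 55.1 and 440 ± 53.5 CPM in CD27+CD69+, CD27+CD69-, CD11b+CD69+ and CD11b+CD69- libraries. It rose in CD69+ against CD69- CD11b+ cells (0.43 ± 0.10, adjusted p = 0.0187) and in CD27+ against CD11b+ CD69- cells (0.51 ± 0.10, adjusted p = 0.00122). Fau and Rpl36al passed in none of the 4 comparisons. Of the 4 genes tested on this list, 2 were negative in CD69+ against CD69- CD11b+ cells (median 0.03). In CD27+ against CD11b+ CD69- cells 2 were negative too (median 0.04). In CD69+ against CD69- CD27+ cells 1 was negative (median 0.29), and among CD69+ cells 0 were (median 0.23).
Of 16 translation factors and related genes with TOP mRNAs, 4 rose in CD69+ CD11b+ cells (Eif3e, Hnrnpa1, Npm1 and Eef1g). That was 25%, against 1.64% of all genes. In CD69+ CD27+ cells 1 rose (Eef1g), or 6.25% against 0.55% of all genes. In CD27+CD69- against CD11b+CD69- cells 4 rose (Eif3e, Eef1b2, Hnrnpa1 and Npm1), or 25% against 7.46% of all genes. In CD27+CD69+ against CD11b+CD69+ cells 0 rose. There 6 had an unadjusted p under 0.05, against 1205 of all 10536 genes. Eef1g, a subunit of the factor that recharges elongation factor 1A, differed by 0.65 ± 0.14 in CD11b+ (adjusted p = 0.00892) and 0.60 ± 0.14 in CD27+ cells (adjusted p = 0.0224). Npm1, a nucleolar chaperone of ribosome assembly, differed by 0.76 ± 0.17 in CD27+ against CD11b+ CD69- cells (adjusted p = 0.00326).
Of 24 ribosome assembly genes, Mrto4 rose in CD69+ CD11b+ cells (0.88 ± 0.23, adjusted p = 0.0343, edgeR). That was 1 of 24 or 4.17%, against 1.64% of all genes. Nop58 (0.66), Dkc1 (0.86) and Gnl3 (0.64) rose in CD27+ against CD11b+ CD69- cells (3 of 24 or 12.5%, against 7.46% of all genes). In CD69+ CD27+ cells and among CD69+ cells 0 rose. There 5 and 2 had an unadjusted p under 0.05, against 1154 and 1205 of all 10536 genes. The medians of this list were 0.37, 0.17, 0.31 and 0.24 in the order of comparisons given above, where those of all genes lay between -0.01 and 0.05.

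Of 17 tested regulators, the transcription factor Myc rose in CD69+ CD27+ cells, with 261 to 523 CPM in CD27+CD69+ (median 357) and 156 to 262 in CD27+CD69- libraries (median 240). These ranges overlapped slightly, with a log2 difference of 0.72 ± 0.18 (adjusted p = 0.0271, edgeR). Myc was 1 of 17 or 5.88%, against 0.55% of all genes. Eif4e (0.51, adjusted p = 0.0111, edgeR) and its inhibitor Eif4ebp1 (1.66, adjusted p = 0.0182) rose in CD27+ against CD11b+ CD69- cells. These were 2 of 17 or 11.8%, against 7.46% of all genes. In the other 2 comparisons 0 regulators passed. There 1 and 2 had an unadjusted p under 0.05, against 1460 and 1205 of all 10536 genes. Eif4ebp1 ran from 31.4 to 250 CPM in CD27+CD69- and from 4.92 to 49.4 in CD11b+CD69- libraries.
Genes of the mitochondrial ribosome, which is built from other proteins, had 10 of 77 tested (13%) rise in CD27+ against CD11b+ CD69- cells, where 7.46% of all genes rose, among them Mrpl28 (0.98 ± 0.20, adjusted p = 0.00108) and Mrpl39 (0.90 ± 0.20, adjusted p = 0.00218). In the other 3 comparisons 0 of them passed. There 17, 2 and 3 had an unadjusted p under 0.05, against 1460, 1154 and 1205 of all 10536 genes. The medians of the mitochondrial ribosome genes were 0.24, 0.06, 0.38 and 0.15 in the 4 comparisons. Those of the members were 0.35, 0.35, 0.39 and 0.37. Of 286 named retropseudogene copies of members, 23 were tested. Rps19-ps6 alone rose, in CD27+ against CD11b+ CD69- cells (1.10 ± 0.37, adjusted p = 0.0469, edgeR). That was 4.35% of the copies tested, against 7.46% of all genes. The copies had medians of 0.40, 0.44, 0.58 and 0.52 in the 4 comparisons. No gene of these 6 lists fell in any of the 4 comparisons. Reads of members and of their copies cannot be told apart from counts alone.

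The members are spread over 19 chromosomes, with 14 of them on chromosome 7. A small nucleolar RNA lay inside an intron, clear of annotated exons, in 16 of 83 members (19.3%), against 150 of 10531 tested genes with a position (1.42%). Named retropseudogenes exist for 59 members, and exons of 38 members overlap another annotated gene, 27 of them on the same strand.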

How the data were processed

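RNA of 100 sorted cells per library became amplified full-length cDNA with the SMART-Seq v4 kit and libraries with Nextera XT, per the labels' protocols. This chemistry marks no strand and adds no molecular identifiers, so floors cover counting error alone. For each Ensembl gene and library the authors deposited raw, unnormalized counts. GRCm38, HTSeq and Picard are named in the submitters' processing notes; the aligner and the handling of shared reads are unknown from the sources used here. The table had 53471 rows, and 53465 identifiers after 6 repeated ones were removed.

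Tests used edgeR 4.0.16 (R 4.3.3), with filterByExpr (minimum count 10, 10536 genes kept), TMM scaling (factors 0.958 to 1.06), the robust quasi-likelihood fit of 4 population means to all 24 libraries, and Benjamini-Hochberg adjustment over all genes, with a threshold of 0.05. CPM are counts scaled to the library's TMM-adjusted total over tested genes; 3 counts correspond to 1.15 to 2.47 CPM. Replicates differed by more than counting error (chi-square per degree of freedom 10.1 to 29.9 over 60 pairs). The titles carry replicate numbers 1 to 6 whose meaning the labels do not state, so p-values reflect the spread among samples only, which may be technical. Positions and exon lengths are from GENCODE M21 (GRCm38), start sequences from RefSeq (GRCm38.p6).

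Named members were, per comparison, up to 10 of smallest p past the threshold, the paralogs, stalk and stress-signal members, and the 5 highest and lowest by level; of each other list, up to 4 past the threshold. Counts and sums include a few genes whose own values are left out of the text and of 2 figures. The members and lists were chosen with earlier results of these data known. Alternatives were DESeq2 1.42.0 size factors and test, plain totals, TMM from non-member genes, no filter, limma-voom (limma 3.58.1), fits of only the populations compared, a replicate block, marker covariates and left-out libraries. The marker covariates were the centred log2(CPM + 1) of the T cell or fibroblast marker sum.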

Additional observations from a re-analysis of the deposited data

Results flagged for a closer look

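For 29 measures, the summed level and the named members, the 4 populations of 6 libraries were searched for a highest or lowest library whose gap to its nearest neighbour passed Dixon's critical value for 6 values; 15 of 116 groups did, where chance gives about 1 in 20. They were not independent, since most came from the same 2 libraries.

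CD27+CD69- replicate 1 lay below the rest of its population, with a summed level of 15750 CPM (population median 25680). In that library the single members were Rpl39 at 35.99 CPM (median 118), Rpl7 at 320 (665), Rplp1 at 179 (333), Rpsa at 232 (464), Rpl5 at 91.2 (163), Rpl26 at 156 (254), Rps27a at 136 (264) and Rpl8 at 271 CPM (532). Its total count was 2020937, its fibroblast markers summed to 3128 CPM and its melanoma markers to 38.0 CPM, and their part in the low values was not tested.

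CD27+CD69+ replicate 3 also lay below its population, with a summed level of 25590 CPM (median 32080), and with Rpl7 at 622 CPM (770), Rpl11 at 111 (172), Rpl26 at 248 (317) and Rpl12 at 160.0 CPM (201). Its fibroblast markers were at 0. Rps27 in CD11b+CD69+ replicate 4 was higher than in the rest, at 512 CPM (median 442).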

How the results depend on the processing

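Over the alternatives tried, 0 members were called lower in any comparison. Single members were followed only for the 56 calls past the threshold in the main fit, a choice that favours a stable sign. None of these 56 changed sign, and 3 stayed past the threshold in every alternative. Members not called, Rpl22l1 among them, were not followed for a change of sign. The counts of members called higher moved more; the causes were not tested. In CD69+ against CD69- CD11b+ cells (13) the count was 3 with no filter on low counts, 20 with the DESeq2 test and 27 in a fit of only the populations compared. In CD69+ against CD69- CD27+ cells (3) it was 1 with DESeq2 size factors, plain totals or no filter, 7 with limma-voom, and 0 with only the populations compared, the fibroblast covariate or the T cell covariate. In CD27+ against CD11b+ CD69- cells (29) it was 46 with plain totals, 15 with only the populations compared, 3 with the T cell covariate and 0 with the fibroblast covariate, which also gave a median of 0.24 against 0.39. In CD27+ against CD11b+ CD69+ cells (11) it was 7 with no filter or the fibroblast covariate, 20 with the DESeq2 test, 25 with only the populations compared and 0 with the T cell covariate. Of all genes, 173, 58, 786 and 104 were called higher in the 4 comparisons. No filter gave 117, 54, 1480 and 80, and the DESeq2 test 287, 91, 969 and 178. Fits of only the populations compared gave 177, 31, 488 and 124, and plain totals 187, 49, 987 and 119. The T cell covariate gave 156, 17, 337 and 26, and the fibroblast covariate 149, 0, 29 and 87. Without CD27+CD69- replicates 1 and 6 the 4 member counts were 31, 0, 62 and 30, against 233, 32, 745 and 143 of all genes. That setting and the T cell covariate were chosen after seeing the data. For fits that left out 1 library, here and above, the counts over all genes are not given. Leaving out 1 library at a time gave 3 to 10, 1 to 10, 20 to 59 and 7 to 15 members, medians of 0.31 to 0.37, 0.25 to 0.41, 0.31 to 0.48 and 0.35 to 0.42, and for the difference between CD69 differences 0 members and medians of -0.12 to 0.05. Summed levels without 1 library ran from 30860 to 32520 CPM (CD27+CD69+), 23740 to 26550 (CD27+CD69-), 23640 to 24610 (CD11b+CD69+) and 18790 to 19220 (CD11b+CD69-).

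Whether the replicate numbers pair the libraries is not stated in the labels. Same-numbered libraries of different populations had a median correlation of deviations of 0.0024 over 36 pairs (-0.029 to 0.208, 1 above 0.1). Of 24 libraries 4 were closest to their own number. Replicates differed by more than counting error, so low correlations cannot show that the libraries are unpaired. With the replicate block the counts were 11, 2, 28 and 11, and 0 for the difference between CD69 differences. A count of 3 corresponds to 1.15 to 2.47 CPM, which limits statements on Rpl10l, Rpl3l, Rpl39l and Rpl24.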
